A study of Mus musculus with 3530 samples.

Results

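Neurons of the medial prefrontal cortex that carried reporter reads were set against neurons with none, within the same mice of the Fear-Only condition. A cell was called reporter-read where the TdTom-transgene had 1 or more counts and reporter-free where it had 0, so the members were chosen by that count, and it is described without a test. Of 3530 cells in the series, 841 were Fear-Only cells from 5 mice, of which 468 were reporter-read and 373 reporter-free. A comparison within a mouse needed 10 or more cells a side, which animals 2, 3 and 5 had, with 428 reporter-read and 337 reporter-free cells in all.

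TRAP2 puts a tamoxifen-dependent Cre recombinase under the control of the Fos gene, and Ai14 is an allele from which Cre releases the red fluorescent protein tdTomato. A neuron in which Fos was active while the drug was present keeps tdTomato afterwards, so the reporter records past activity and not activity at dissociation. Fos is an immediate early gene. Neurons transcribe these within minutes of strong input, and many encode transcription factors that act on slower late-response genes such as Bdnf. Smart-seq2, the library method in the labels, amplifies full-length messenger RNA from single sorted cells.

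The study set 4 conditions beside each other, Fear-Only, Fear-Recall, Context-Only and Homecage, with 5 mice each. TRAP2 and Ai14 are shared by all of them, and reporter-free cells come from the same brains as reporter-read ones. The labels give no age and no times of drug, training or dissociation, and describe the cells only as primary brain cells of the region. All 21 clusters of the 3530 cells were excitatory-neuron-like (2387 cells) or inhibitory-neuron-like (1143 cells) by their markers, and 0 cells took the name of another type. With a finer clustering, at Leiden resolution 2, 1 cluster of 12 cells, 3 of them Fear-Only, was astrocyte-like. At resolution 1, the 2 clusters of fewest genes, 1 of each class, had medians of 3160 and 3064.5 genes and held 28 Fear-Only cells. Without them animal 2 kept 103 of 125 reporter-free and 120 of 121 reporter-read cells. Animal 3 kept 110 of 113 and 268 of 268, and animal 5 kept 97 of 99 and 39 of 39. Leaving them out turned no sign of a named gene in all neurons and was not done within a class. Fear-Only cells held 100259 to 6840943 counts (median 843767). Levels of genes below are CPM, the counts of a gene summed over a side of an animal and scaled to that side. The scale is the total over the genes tested, adjusted between the sums by edgeR's TMM factors, so it shifts with the set of sums. Reporter levels are CPM of the single cell. The replicate is the animal, and p-values measure the spread between animals.

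The share of reporter-read cells differed widely between the Fear-Only mice. It was 100% in animal 1 (36 of 36 cells, exact 95% interval 90.3 to 100%), 49.2% in animal 2 (121 reporter-read, 125 reporter-free, 42.8 to 55.6%), 70.3% in animal 3 (268 and 113, 65.5 to 74.9%), 10% in animal 4 (4 and 36, 2.79 to 23.7%) and 28.3% in animal 5 (39 and 99, 20.9 to 36.5%). The intervals cover counting error only. The median reporter level of reporter-read cells was 249 CPM in animal 1, 12.8 CPM in animal 2, 24.9 CPM in animal 3, 9.72 CPM in animal 4 and 8.82 CPM in animal 5. Animal 1 had no reporter-free cell and animal 4 had too few reporter-read cells, so neither entered a test.

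Sorting gates called pos and neg appear in the titles of the plates of animals 2, 3 and 4, and no gate in those of animals 1 and 5. In animal 2 the pos plate held 116 reporter-read and 68 reporter-free cells, and the neg plate 5 and 57. In animal 3 the neg plate held 10 of the 268 reporter-read and 82 of the 113 reporter-free cells. In these animals most of the reporter-free side comes from another plate than the reporter-read side, and side and plate cannot be told apart unless the neg plate is left out. Animal 5 had 39 reporter-read and 99 reporter-free cells on 1 ungated plate. An alternative with 1 plate per animal, the pos plates of animals 2 and 3 and the plate of animal 5, was added after seeing the data and is given wherever it moves a result.

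**Figure D1:**
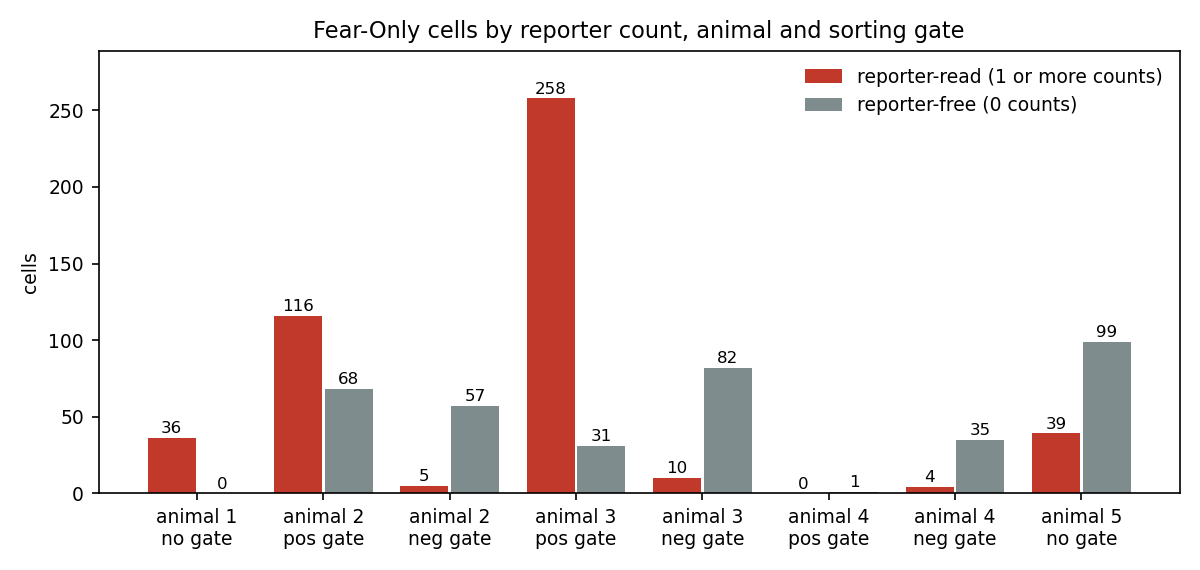
Number of Fear-Only cells (vertical axis) by animal and sorting gate, split into reporter-read and reporter-free cells. In animals 2 and 3, 374 reporter-read cells were on pos plates and 15 on neg plates, against 99 and 139 reporter-free cells, and animal 5 had both kinds on 1 plate.

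Just inside the threshold, 20 reporter-read cells had exactly 1 reporter count and 80 had 1 to 4. The cells at 1 count had a median of 904206 reads, against 995227 reads in the reporter-free cells just outside it, and 1 count came to a median of 1.11 CPM. After each cell was thinned to 100000 reads, 328 of the 428 reporter-read cells kept a reporter count. Depth differed between the sides most in animal 3, with a median of 726826 reads per reporter-read cell and 2376413 reads per reporter-free cell, and the reporter-free cells of its neg plate had a median of 2838551 reads.

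No gene passed an adjusted p of 0.05 in edgeR's quasi-likelihood test with the animal as a block. The share called was 0% of 17625 genes tested in all neurons, 0% of 16547 in excitatory neurons and 0% of 14210 in inhibitory neurons, and the smallest adjusted p were 0.9998, 0.9996 and 0.9991. At an unadjusted p under 0.05 there were 400 genes in all neurons (2.27%), 423 in excitatory neurons (2.56%) and 238 in inhibitory neurons (1.67%). DESeq2 on the same sums called 60 genes in all neurons (0.34%), 56 in excitatory neurons (0.338%) and 45 in inhibitory neurons (0.317%), and limma-trend called 0 in each. The block pairs the sides of a mouse, and edgeR without it also called 0 genes in each comparison. The differences below are therefore values that did not pass in edgeR, given with the number of animals that shared their direction. Over all genes tested in all neurons, 10.7% were higher in reporter-read cells of 3 of 3 animals and 12% were lower, and the median log2 fold change was -0.020. With 1 plate per animal these shares were 16.2% and 12.5% of 16263 genes, with a median of 0.058.

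Most immediate early genes lay above 0 in excitatory neurons. Of 34 immediate early genes tested there, 30 had a log2 fold change above 0, against 49.6% of all genes, and their median was 0.45. In 3 of 3 animals 12 were higher in reporter-read cells and 0 lower, where the background over all genes in excitatory neurons was 11.2% higher and 12.1% lower. The animals were unlike each other. In animal 2, 33 of the 34 were higher, with a median log2 ratio (1 CPM added to each side) of 0.70. In animal 3, 23 were higher with a median of 0.32, and in animal 5, the one with a single plate, 16 with a median of -0.016. On 1 plate per animal, 20 of 33 immediate early genes were above 0, against 57.7% of all genes, and without animal 2 the count was 21 of 34.

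Nr4a2, an orphan nuclear receptor that acts as a transcription factor, led the list in all neurons. In excitatory neurons Nr4a2 had 109.9 CPM in reporter-read and 30.4 CPM in reporter-free cells of animal 2, 72.4 and 28.1 CPM in animal 3, and 99.9 and 62.1 CPM in animal 5. Every reporter-read sum lay above every reporter-free sum. The means were 94.1 ± 19.5 CPM in reporter-read and 40.2 ± 19.02 CPM in reporter-free neurons (SD, n = 3 each), and the log2 fold change was 1.30 (SE 0.27, DESeq2 adjusted p = 0.0015), or 0.83 with the reporter called in thinned cells. Over all neurons Nr4a2 had 82.8 against 26.96, 52.9 against 23.4 and 82.4 against 67.3 CPM in animals 2, 3 and 5, reporter-read against reporter-free, and 90.8 against 60.3, 53.7 against 9.95 and 81.5 against 66.2 CPM with 1 plate per animal.

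Egr4, a zinc-finger transcription factor of the Egr family, had 37.6 against 23.7, 17.9 against 13.03 and 53.1 against 19.6 CPM in all neurons of animals 2, 3 and 5, reporter-read against reporter-free (log2 fold change 0.85, SE 0.29). Per1, a circadian clock gene that neuronal activity also induces, had 86.5 against 52.1, 34.6 against 30.04 and 119.9 against 60.2 CPM (0.64, SE 0.22). Dusp6, a phosphatase that switches off the MAP kinase ERK, had 58.8 against 27.7, 72.1 against 66.2 and 111 against 46.6 CPM (0.82, SE 0.27). For these 3 genes the sums of the sides overlapped between animals, and reporter-read was the higher side within each animal, also with 1 plate per animal.

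The members best known as activity markers did not share 1 direction. Fos, the gene that drives the TRAP2 recombinase, had 642 against 243.6, 178.2 against 199.5 and 156.9 against 201 CPM in animals 2, 3 and 5, so it was higher in reporter-read neurons of animal 2 only. Its log2 fold change was 0.28 (SE 0.36) on all plates and -0.68 with 1 plate per animal, where Fos had 624.6 against 480.2, 186 against 825 and 155 against 197 CPM. Arc, a synaptic protein that promotes removal of AMPA receptors, had 121 against 117.7, 122.9 against 182.96 and 172 against 135 CPM, and Npas4, an activity-dependent transcription factor, had 17.5 against 14.4, 10.7 against 18.9 and 19.7 against 36.03 CPM. Arc was higher in 2 of 3 animals and Npas4 in 1 of 3. Egr1, a relative of Egr4, had 709.8 against 507, 358 against 327 and 744 against 742 CPM, nearly equal in animal 5. Nr4a1, a relative of Nr4a2, had 645 against 358, 122 against 109.2 and 295 against 218 CPM, and its log2 fold change of 0.48 (SE 0.18) was 0.071 with 1 plate per animal.

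In inhibitory neurons, 15 of 31 immediate early genes were above 0 with a median of -0.035, against -0.032 over all genes. With 1 plate per animal their median was -0.49 (31 genes), against 0.017 over all genes. The reporter-read side of animal 5 held 11 inhibitory neurons. In 3 of 3 animals 4 were higher and 6 lower, beside a background of 10.2% and 12.1% in inhibitory neurons. Whether the excitatory and inhibitory classes differed was not tested. The median log2 ratio of the immediate early genes was 0.37 in animal 2, -0.19 in animal 3 and -0.40 in animal 5.

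The activity-regulated secreted and late-response genes, which hold neuropeptides, growth factors and their processing enzymes, were also mostly above 0 in excitatory neurons. Of 21 tested, 19 were above 0 with a median of 0.68, and 11 were higher and 0 lower in 3 of 3 animals. The median log2 ratio was 0.72 in animal 2, 0.79 in animal 3 and 0.13 in animal 5, where 13 of 21 were higher. On 1 plate per animal, 16 of 20 activity-regulated secreted and late-response genes were above 0 (median 0.53), against 57.7% of all genes. When the reporter was called in thinned cells, 13 of 20 were above 0 (median 0.065), against 45.3% of all genes. In inhibitory neurons 10 of 21 were above 0 (median -0.098).

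**Figure D2:**
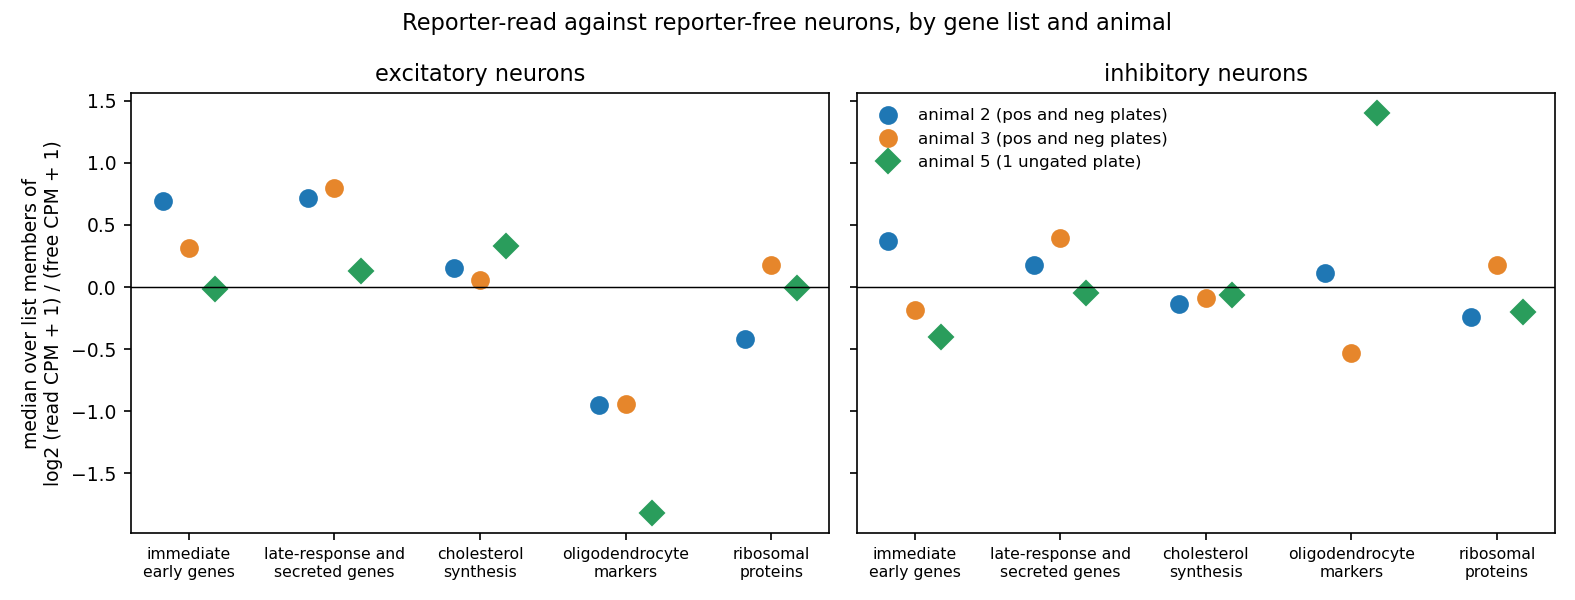
Median log2 ratio of reporter-read over reporter-free CPM (1 added to each) over the members of gene lists, by neuron class, with 1 point per animal. In excitatory neurons the immediate early genes stood at 0.70, 0.32 and -0.016 in animals 2, 3 and 5.

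Bdnf encodes brain-derived neurotrophic factor, which acts through the TrkB receptor in synaptic plasticity. Over all neurons Bdnf had 178.3 CPM in reporter-read and 90.9 CPM in reporter-free cells of animal 2, 155 and 50.9 CPM in animal 3, and 182.1 and 117.02 CPM in animal 5. The lowest reporter-read sum exceeded the highest reporter-free sum. The means were 172 ± 14.7 CPM in reporter-read and 86.3 ± 33.3 CPM in reporter-free neurons (SD, n = 3 each), and the log2 fold change was 1.07 (SE 0.22, DESeq2 adjusted p = 0.0065). Bdnf had 160.0 against 116.6, 172 against 11.3 and 180.2 against 115.1 CPM with 1 plate per animal, again higher in 3 of 3. There the reporter-free side of animal 3 held 31 cells, 67.7% of them inhibitory, against 38.8% of the reporter-read side. The richest single cell held 18.1, 10.6 and 30.9% of the Bdnf counts of the reporter-read sums and 12.4, 25.7 and 17.5% of the reporter-free sums of animals 2, 3 and 5. When the reporter was called in thinned cells the log2 fold change of Bdnf was -0.017. In excitatory neurons Bdnf had 278 against 114, 245.8 against 66.9 and 240.6 against 189.3 CPM (log2 fold change 1.17, SE 0.30).

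Vgf, a precursor of several secreted peptides, had 86.4 against 44.3, 96.0 against 59.3 and 52.2 against 26.98 CPM in all neurons of animals 2, 3 and 5 (log2 fold change 0.87, SE 0.18, DESeq2 adjusted p = 0.04). It was higher in reporter-read cells of 3 of 3 animals in excitatory and in inhibitory neurons, and in 2 of 3 animals with 1 plate per animal (88.6 against 89.8, 100.2 against 92.6 and 51.7 against 26.5 CPM, log2 fold change 0.35). Pcsk1, a protease that cleaves prohormones in secretory granules, had 26.96 against 16.6, 41.5 against 22.5 and 44.9 against 22.5 CPM (0.86, SE 0.23) and 24.9 against 19.2, 43.5 against 29.6 and 44.5 against 22.2 CPM with 1 plate per animal. Reporter-read was the higher side of Pcsk1 in 3 of 3 animals both ways.

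Pdyn, the precursor of the dynorphin opioid peptides, had 25.7 against 5.09, 5.66 against 2.21 and 53.7 against 14.6 CPM over all neurons. Its counts came from few cells, with 9 reporter-read and 6 reporter-free cells holding any in animal 2, 12 and 2 in animal 3, and 3 and 7 in animal 5, and a single cell held 91.5, 38.9 and 73.9% of the reporter-read counts. Its log2 fold change of 1.86 (SE 0.33, DESeq2 adjusted p = 0.0002) was -2.41 when the reporter was called in thinned cells. Of the activity-regulated secreted and late-response genes, 10 of 24 were higher in 3 of 3 animals in all neurons. Of the immediate early genes 10 of 34 were. On all plates and with 1 plate per animal alike, the higher ones in 3 of 3 animals were 5 immediate early genes, Dusp6, Egr2, Egr4, Nr4a2 and Per1, and 6 late-response genes, Bdnf, Nrn1, Pcsk1, Pdyn, Plat and Ptgs2. Btg2, 1 immediate early gene, was lower in both. With 1 plate per animal, 9 immediate early genes were higher and 8 lower in 3 of 3 animals, beside 16.2% and 12.5% of all genes. Of the late-response genes, 9 were higher and 1 lower. Egr2, Nrn1, Plat and Ptgs2 were named after their values were seen.

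Promoter windows of 300 bases, 250 before to 50 after an annotated start, were read from RefSeq (build GRCm38.p6) because these 2 lists lay above 0 together. Each window was searched on both strands for the cyclic-AMP response element TGACGTCA, the AP-1 motif TGANTCA, which Fos and Jun proteins bind, and the EGR motif GCGNGGGCG. Of the 8 genes of these lists named by rule (Nr4a2, Dusp6, Egr4, Per1, Pdyn, Vgf, Bdnf and Pcsk1), 7 had an entry and 3 held a motif. Their windows are printed 5′ to 3′ on the strand of the gene with the motif in capitals, to show where these letters lie at the genes described above.
Nr4a2 (EGR motif, chr2:57123954-57124253, minus strand): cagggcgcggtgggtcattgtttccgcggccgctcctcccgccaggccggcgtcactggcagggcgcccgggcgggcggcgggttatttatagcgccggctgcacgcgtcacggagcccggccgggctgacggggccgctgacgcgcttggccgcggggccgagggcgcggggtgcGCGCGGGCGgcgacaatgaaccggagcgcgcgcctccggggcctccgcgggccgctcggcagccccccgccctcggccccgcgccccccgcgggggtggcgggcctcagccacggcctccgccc
Bdnf (AP-1 motif, in 1 of 7 windows of the gene, chr2:109676782-109677081, plus strand): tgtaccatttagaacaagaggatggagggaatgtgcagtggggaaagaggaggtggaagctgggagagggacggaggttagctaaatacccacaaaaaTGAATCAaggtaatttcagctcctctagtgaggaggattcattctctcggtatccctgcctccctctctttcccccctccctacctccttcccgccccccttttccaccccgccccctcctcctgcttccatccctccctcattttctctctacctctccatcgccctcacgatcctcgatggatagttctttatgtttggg
Pcsk1 (cyclic-AMP response element, chr13:75089607-75089906, plus strand): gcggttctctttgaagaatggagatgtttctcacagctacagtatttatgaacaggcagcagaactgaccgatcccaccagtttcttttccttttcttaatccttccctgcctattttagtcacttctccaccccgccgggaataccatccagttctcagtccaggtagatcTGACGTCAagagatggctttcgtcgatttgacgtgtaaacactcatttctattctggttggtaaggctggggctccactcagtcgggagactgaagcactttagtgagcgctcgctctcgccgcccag

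Over the 64 windows of the 45 genes of both lists with an entry, 6 windows (9.38%) held the cyclic-AMP response element, 5 (7.81%) the AP-1 motif and 9 (14.1%) the EGR motif. Over all 32851 windows of the table the shares were 1.79%, 7.81% and 5.55%. A match is one of letters in these windows only.

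Among all genes, the 6 of smallest p that were higher in reporter-read neurons were Vgf, Bdnf, Dok5, Pnoc, Gpd1 and Ubash3b, and the 6 that were lower were Mbp, Grp, Gsta4, Adcy2, Opcml and Myl4. None passed in edgeR. Bdnf and Dok5 of the higher ones and Mbp of the lower ones, with 1 plate per animal, kept their direction in 3 of 3 animals. On the pos plate of animal 3, 67.7% of the reporter-free and 38.8% of the reporter-read cells were inhibitory. The part of this in the values of these genes was not tested. Of 16232 genes tested both ways, 872 were higher and 676 lower in 3 of 3 animals in both.

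Dok5 encodes an adaptor that docks to receptor tyrosine kinases. Over all neurons Dok5 had 85.7 CPM in reporter-read and 47.9 CPM in reporter-free cells of animal 2, 92.6 and 59.8 CPM in animal 3, and 88.4 and 36.8 CPM in animal 5. The reporter-read sums lay close together and above all reporter-free sums. The means were 88.9 ± 3.50 CPM in reporter-read and 48.2 ± 11.5 CPM in reporter-free neurons (SD, n = 3 each), and the log2 fold change was 0.91 (SE 0.20, DESeq2 adjusted p = 0.039). It was 1.25 (SE 0.30) with 1 plate per animal, at 58.2 against 38.8, 87.2 against 23.4 and 87.5 against 36.2 CPM, and 0.24 when the reporter was called in thinned cells. In excitatory neurons, where Dok5 had the smallest p of the higher genes, it was 0.98 (SE 0.17), at 126 against 56.95, 135 against 73.5 and 108.2 against 57.3 CPM, and 0.28 with the thinned call.

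Pnoc, the precursor of the peptide nociceptin, had 254 against 122, 224.5 against 105 and 175 against 135 CPM in all neurons (log2 fold change 0.85, SE 0.20) and 679 against 525.9, 610.4 against 428 and 716 against 341 CPM in inhibitory neurons. Its log2 fold change in all neurons was -0.28 with 1 plate per animal. Gpd1, a glycerol phosphate dehydrogenase of the cytosol, had 99.1 against 41.6, 153.5 against 64.7 and 88.9 against 67.1 CPM (0.97 on all plates, 0.099 with 1 plate per animal). Ubash3b, a tyrosine phosphatase, had 85.3 against 53.1, 99.4 against 63.2 and 62.6 against 25.8 CPM (0.87 and 0.066). Without the neg plates, then, none of these 3 genes kept its size.

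**Figure D3:**
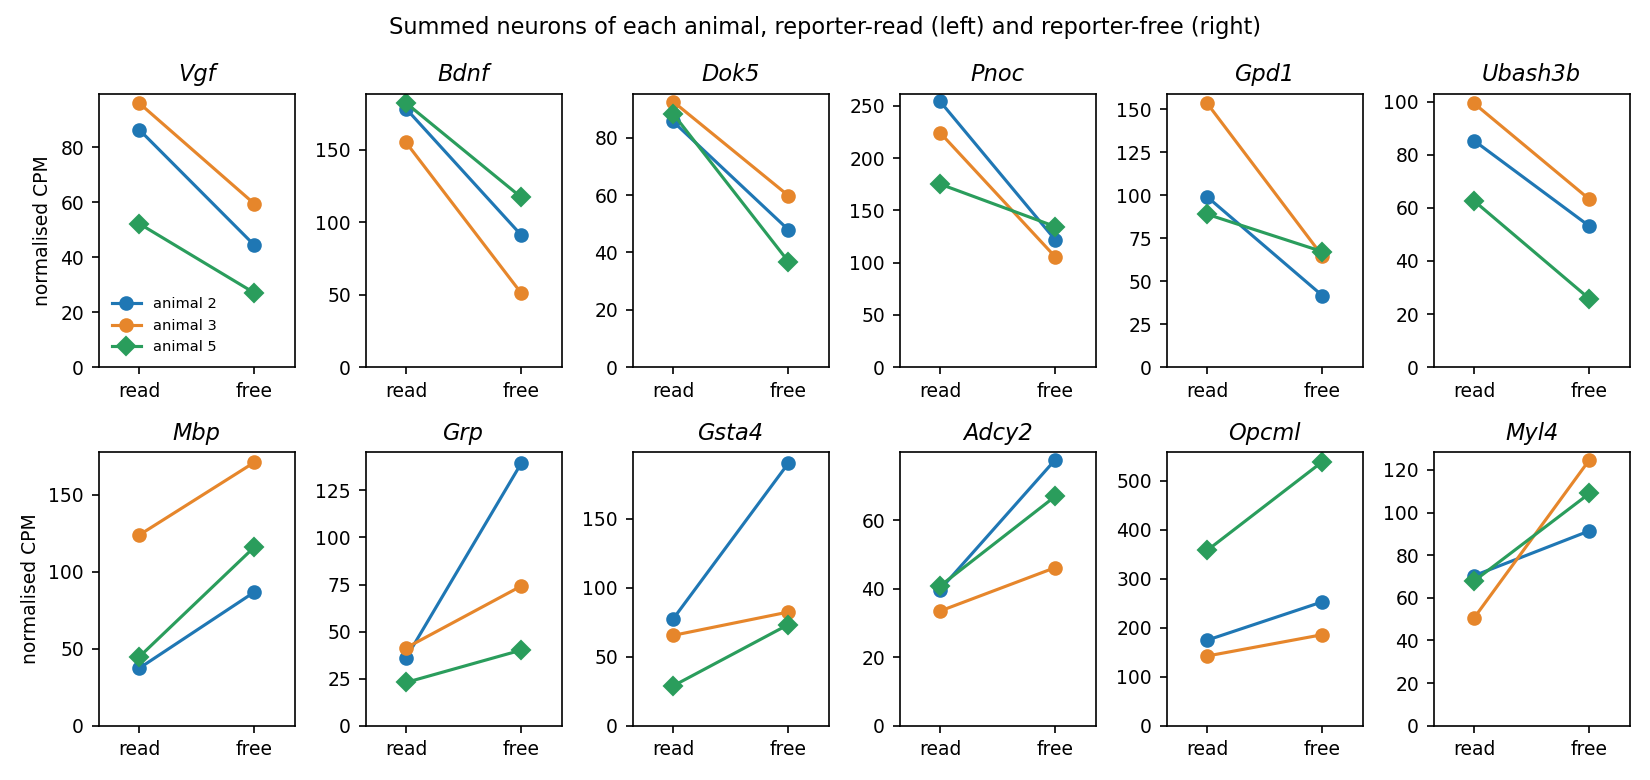
CPM (vertical axis) of the 12 named genes in the summed neurons of animals 2, 3 and 5, with reporter-read on the left and reporter-free on the right and a line joining the sides of an animal. The 6 higher genes include Bdnf, with means of 172 ± 14.7 CPM in reporter-read and 86.3 ± 33.3 CPM in reporter-free neurons.

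Among the lower genes, Mbp encodes myelin basic protein, the main protein of myelin. It had 37.2 CPM in reporter-read and 86.8 CPM in reporter-free neurons of animal 2, 123.7 and 171.03 CPM in animal 3, and 44.6 and 116 CPM in animal 5, a log2 fold change of -1.02 (SE 0.23, DESeq2 adjusted p = 0.021). The sides overlapped between animals, and with 1 plate per animal the log2 fold change was -0.65. A single cell held 10.53, 16.001 and 26.6% of the Mbp counts of the reporter-read sums and 49.4, 29.2 and 40.5% of the reporter-free sums. All 7 oligodendrocyte lineage markers tested were below 0 (median -1.58), 5 of them in 3 of 3 animals, beside 12% of all genes. With 1 plate per animal, 5 of 6 were below 0 (median -1.60), 2 of them in 3 of 3 animals, beside 12.5% of all genes. On all plates the summed level of the 7 markers was 63.4 to 166.9 CPM in reporter-read and 131 to 238 CPM in reporter-free neurons. Mobp, another myelin gene, had 6.82 against 17.5, 18.8 against 24.1 and 13.8 against 21.3 CPM (log2 fold change -0.78, and 0.13 with 1 plate per animal). The part of myelin RNA from other cells in these values was not tested.

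Grp, the precursor of gastrin-releasing peptide, had 35.97 against 139.6, 41.3 against 74.2 and 22.97 against 40.2 CPM (log2 fold change -1.20, SE 0.29, and -0.31 with 1 plate per animal). Gsta4, a glutathione transferase that detoxifies lipid aldehydes, had 77.3 against 190.3, 65.4 against 82.4 and 28.8 against 73.3 CPM (-0.996, and -0.31). Both were lower in reporter-read neurons of every animal, most so in animal 2 for Grp. Adcy2, an adenylyl cyclase, had 39.7 against 77.7, 33.4 against 46.1 and 40.8 against 67.0 CPM (-0.72, and 0.077). Opcml, an adhesion molecule of the IgLON family, had 174.3 against 253, 141.97 against 186 and 357 against 538 CPM (-0.50, and -0.24). Myl4, a myosin light chain, had 70.4 against 91.4, 50.5 against 125 and 67.9 against 108.97 CPM (-0.79, and 0.20). Adcy2 and Myl4 were above 0 with 1 plate per animal.

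**Figure D4:**
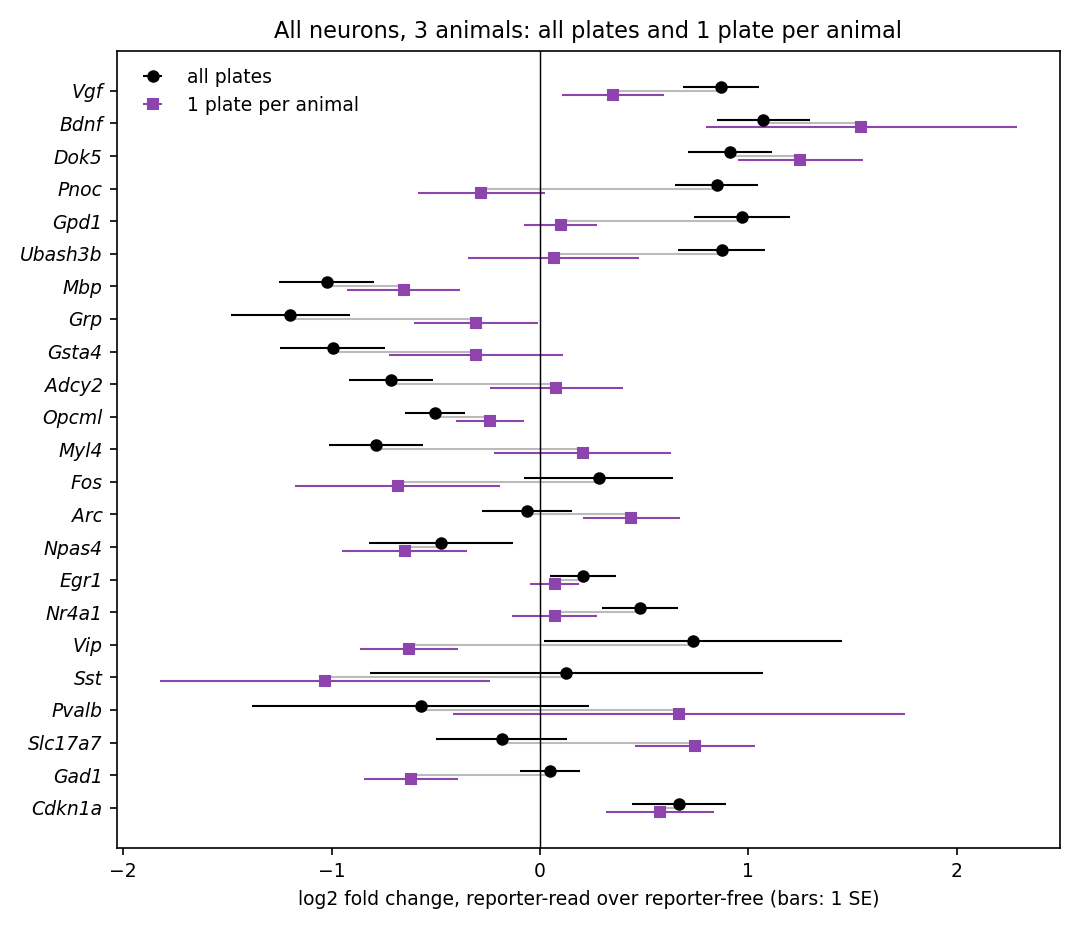
Log2 fold change of reporter-read over reporter-free sums (3 animals, bars 1 SE) for named genes on all plates and with 1 plate per animal. Of the genes of smallest p in all neurons, Pnoc, Adcy2 and Myl4 crossed 0. The others of these, Bdnf, Dok5 and Mbp among them, kept their side.

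Within excitatory neurons Dok5, Efna5 and Nr4a2 were among the genes of smallest p on the higher side. Efna5, a membrane-bound ephrin that guides axons, had 99.4 against 50.6, 197 against 115.4 and 58.7 against 29.9 CPM in animals 2, 3 and 5 (log2 fold change 0.91, SE 0.17, DESeq2 adjusted p = 0.0084). Of 22 cholesterol synthesis genes tested in excitatory neurons, 16 were above 0 (median 0.20), with 7 higher and 0 lower in 3 of 3 animals. Over all genes tested there, 11.2% were higher and 12.1% lower, with a median of -0.0050. In inhibitory neurons 10 of 21 cholesterol synthesis genes were above 0 (median -0.012), with 1 higher and 4 lower. Mvd, a decarboxylase of this pathway, had 58.7 against 44.6, 34.5 against 27.9 and 36.04 against 18.9 CPM in all neurons.

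On the lower side in excitatory neurons were Mbp, Grp, Adcy2 and Cd164. Mbp had 55.3 against 97.4, 88.4 against 177 and 48.8 against 180.8 CPM (log2 fold change -1.23, SE 0.25, DESeq2 adjusted p = 0.00094). All its reporter-read sums lay below all its reporter-free sums. In excitatory neurons the log2 fold change of Mbp with 1 plate per animal, where animal 3 had 10 reporter-free cells, was -0.048. Grp had 57.8 against 178.6, 65.6 against 98.8 and 30.3 against 65.0 CPM (-1.11, SE 0.24), and Adcy2 had 47.8 against 91.9, 35.5 against 55.0 and 35.3 against 71.6 CPM (-0.86, SE 0.20, and -0.013 with 1 plate per animal). Cd164, a sialomucin, had 23.5 against 45.5, 31.0 against 44.9 and 96.2 against 151 CPM (-0.71, SE 0.20), and 0.15 with 1 plate per animal.

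Within inhibitory neurons the genes of smallest p on the higher side were Cbln2, Rgs16, Chst2 and Pacsin1. The values of animal 5 here rest on 11 reporter-read cells. Cbln2, a secreted organiser of synapses, had 1059 against 572, 638 against 231 and 181.2 against 102 CPM (log2 fold change 1.06, SE 0.19, DESeq2 adjusted p = 0.0011). Rgs16, which shortens G-protein signals, had 239.2 against 89.3, 183.5 against 117.6 and 217.3 against 81.8 CPM (1.16, SE 0.24). The sides of Rgs16 did not overlap, while those of Cbln2 overlapped between animals. Chst2, a carbohydrate sulfotransferase, had 289.6 against 189.2, 262 against 87.8 and 89.3 against 51.1 CPM (0.998, SE 0.26). Pacsin1, which bends membranes during endocytosis, had 553 against 369.9, 436 against 263 and 423 against 313 CPM (0.58, SE 0.16).

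On the lower side were Lamp5, Ptprt, Grin3a and Iqsec3. Lamp5, a membrane protein that marks a class of interneurons, had 14.9 against 80.2, 79.7 against 219.3 and 38.3 against 91.8 CPM (log2 fold change -1.71, SE 0.32, DESeq2 adjusted p = 0.0018). Ptprt, a receptor phosphatase of synapses, had 12.1 against 49.9, 21.1 against 36.1 and 37.1 against 165.6 CPM (-1.66, SE 0.40). Grin3a, an NMDA receptor subunit that lowers calcium flow, had 38.4 against 71.8, 30.7 against 62.6 and 48.01 against 96.2 CPM (-0.98, SE 0.26). The sides of Grin3a did not overlap. Iqsec3, an exchange factor of inhibitory synapses, had 27.01 against 62.4, 23.9 against 46.5 and 17.7 against 58.8 CPM (-1.30, SE 0.35). Of 7 markers of Lamp5 and Ndnf interneurons, 2 were above 0 in inhibitory neurons (median -0.36), and of 9 Sst interneuron markers 1 was (median -0.31). The animals did not share a direction, with median log2 ratios (1 CPM added to each side) of -0.86, -1.15 and 0.73 in animals 2, 3 and 5 for the Lamp5 and Ndnf markers and of 1.45, -0.57 and -2.60 in animals 2, 3 and 5 for the Sst markers. When the reporter was called in thinned cells, the log2 fold changes were 0.46 for Cbln2, 0.43 for Rgs16, -1.09 for Lamp5 and -0.78 for Iqsec3, and with 1 plate per animal Pacsin1 had 0.24. Fewer cells of a subtype and less RNA per cell cannot be told apart in such sums.

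The make-up of the sides in animals 2 and 3 differed between the sets of plates. The inhibitory share was 37.2% of reporter-read and 26.4% of reporter-free cells in animal 2, 38.1% and 34.5% in animal 3, and 28.2% and 40.4% in animal 5. It was higher on the reporter-read side in animals 2 and 3 and lower in animal 5. The mean difference was 0.71 percentage points ± 11.8 (SD, n = 3; exact two-sided sign-flip p = 1, where 0.25 is the smallest that 3 animals allow). On 1 plate per animal the share was 37.9% against 38.2%, 38.8% against 67.7% and 28.2% against 40.4%, a mean difference of -13.8 points (exact p = 0.25), so reporter-read was the lower side in all 3 animals. All 9 Vip interneuron markers were above 0 on all plates (median 0.53), and 1 of 9 was with 1 plate per animal (median -0.63). Of 12 inhibitory neuron markers 10 were above 0 on all plates and 1 with 1 plate per animal, and of 8 excitatory neuron markers 1 and 7.

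Single markers were read on both sets of plates, which for animal 5 hold the same cells, so its CPM differ by the scaling only. Vip, a peptide of interneurons, had 9917 against 4958, 8914 against 1656 and 2517 against 6438 CPM in animals 2, 3 and 5 on all plates and 10017 against 12329, 9644 against 11491 and 2490.3 against 6331 CPM with 1 plate per animal. Slc17a7, a vesicular glutamate transporter of excitatory neurons, had 40.3 against 71.5, 65.9 against 86.3 and 80.7 against 50.3 CPM and 40.3 against 36.002, 60.8 against 23.2 and 79.8 against 49.5 CPM in the same order. Gad1, which makes GABA, had 158.2 against 141.4, 288.8 against 286 and 383 against 392.3 CPM and 155 against 258.4, 290.2 against 621 and 379 against 386 CPM. With 1 plate per animal Vip and Gad1 were lower and Slc17a7 higher on the reporter-read side in 3 of 3 animals. Sst, the somatostatin peptide, had 1209.6 against 314, 367 against 222 and 344 against 2357 CPM, and 99.7% of its reporter-read counts in animal 5 came from a single cell. Pvalb, a calcium-binding protein of fast-spiking interneurons, was at 30.8 CPM or less in every sum.

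Genes detected per cell had a median of 6827 in reporter-read and 5708 in reporter-free cells of animal 2, 7352 and 8199 in animal 3, and 6498 and 5225 in animal 5 (mean difference 515 ± 1182, SD, n = 3, exact p = 0.5). With cells thinned to 100000 reads the medians were 5581 and 4504, 6108 and 6141, and 5471 and 4154. With 1 plate per animal reporter-read cells had more genes in 3 of 3 animals, with 6829.5 and 5366, 7338 and 5869, and 6498 and 5225 (mean difference 1402 ± 111, exact p = 0.25, the smallest possible). The part of this in the other results was not tested.

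Other gene groups are set beside the shares over all genes in all neurons, 10.7% higher and 12% lower, and no member passed in edgeR. Of 24 chaperone and heat-shock genes, 7 were higher and 0 lower in 3 of 3 animals (median 0.070), and with 1 plate per animal 3 and 3 of 22. St13, a cochaperone of Hsp70, had 1038 against 810.5, 1009.7 against 749.9 and 157.8 against 102 CPM, and Hspa2, of the Hsp70 family, 30.02 against 20.96, 43.0 against 34.99 and 37.6 against 28.1 CPM. Of 22 CREB and MEF2 regulators, 4 were higher and 1 lower, and with 1 plate per animal 7 and 1. Crem, a CREB-related factor, had 80.9 against 52.1, 64.02 against 46.2 and 72.3 against 52.8 CPM, and Atf4, a factor of the integrated stress response, 337 against 203.6, 294.3 against 244.3 and 116 against 116 CPM. Their log2 fold changes of 0.52 and 0.33 were 0.14 and -0.064 with 1 plate per animal. Of 48 synaptic vesicle and exocytosis genes, 2 were higher and 4 lower, and with 1 plate per animal 17 and 6 of 47, beside 16.2% and 12.5% of all genes. Syt7, a calcium sensor of release, had 56.9 against 88.8, 56.8 against 63.5 and 36.5 against 50.3 CPM, and Cplx1, a complexin, 384 against 216.2, 532 against 560.5 and 462 against 329 CPM. The log2 fold change of Syt7 was -0.42 on all plates and 0.37 with 1 plate per animal.

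Of 15 growth-arrest and p53 target genes, 1 was higher and 4 were lower in 3 of 3 animals (median -0.11). The higher one was Cdkn1a, the cell-cycle inhibitor p21, at 242 against 131, 290.8 against 142.4 and 182.1 against 172.7 CPM (log2 fold change 0.67, SE 0.23). Cdkn1a had 249 against 194.8, 322 against 131 and 180.2 against 169.9 CPM with 1 plate per animal. Gadd45b, a stress and activity gene, had 137 against 52.9, 77.2 against 21.1 and 32.5 against 32.7 CPM. Of 35 glutamate receptors and postsynaptic scaffolds, 4 were higher and 6 lower in 3 of 3 animals. Of 21 GABA synthesis, transport and receptor genes the counts were 0 and 1, of 30 potassium channel genes 2 and 3, of 22 neuropeptide genes 3 and 2, and of 14 glucocorticoid-response genes 3 and 2. These counts with 1 plate per animal were 7 and 6 for the glutamate receptors and scaffolds, 2 and 8 for the GABA genes, 1 and 2 for the potassium channels, 3 and 4 for the neuropeptides and 2 and 3 for the glucocorticoid-response genes.

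Genes of large complexes differed between animals. Of 81 cytosolic ribosomal protein genes, 72 were below 0 (median -0.11), but 2 were higher in reporter-read neurons of animal 2, 77 in animal 3 and 22 in animal 5. With 1 plate per animal 44 were lower in 3 of 3 animals and 0 higher (median -0.20), beside 12.5% and 16.2% of all genes. Rps27a had 263 against 412, 216.4 against 194.9 and 135 against 172 CPM and Rps18 327 against 593, 227.4 against 194.8 and 203.04 against 251.03 CPM, both lower in animals 2 and 5 and higher in animal 3. Of 76 nuclear genes of oxidative phosphorylation, 67 were below 0, with 4 higher and 3 lower in 3 of 3 animals, and with 1 plate per animal 7 and 28. Of these, Ndufs7 and Ndufs8, subunits of complex I, had 619 against 914, 411 against 419 and 252.2 against 368 CPM and 336 against 496, 214.2 against 223.9 and 152.7 against 187.5 CPM. Of 36 proteasome subunit genes 2 were higher and 3 lower, and of 17 mitochondrially encoded genes 2 and 1. The counts with 1 plate per animal were 4 and 10 for the proteasome and 0 and 5 for the mitochondrial genes.

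Microglia and vessel markers had lower sums than astrocyte markers. The 9 microglia markers tested summed to 36.6 to 46.4 CPM in reporter-read and 29.2 to 59.0 CPM in reporter-free neurons, and the 4 endothelial and mural markers to 16.8 to 38.1 and 21.2 to 44.4 CPM. The 9 astrocyte markers summed to 592 to 603 CPM in reporter-read and 559.8 to 753 CPM in reporter-free neurons.

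The within-animal difference was then set beside that of the other conditions, in 1 fit over the animals with both sides (Fear-Only 3, Fear-Recall 5, Context-Only 5 and Homecage 3). Of 19958 genes, 0 passed in edgeR for the Fear-Only difference against the mean of the others (0%) and 0 against Fear-Recall (0%), and limma-trend called 0 in both. At an unadjusted p under 0.05 there were 448 (2.24%) and 325 (1.63%), and DESeq2 called 16 and 2 genes. In the same fit the difference between sides called 0 genes within Fear-Recall (0%), 0 within Context-Only (0%) and 0 within Homecage (0%), with 1361, 1416 and 1477 genes at an unadjusted p under 0.05, beside 418 within Fear-Only.

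The named genes were read in these separate animals too. Of the 6 genes higher in Fear-Only, 5 had the same sign in Fear-Recall, 3 in Context-Only and 5 in Homecage, and of the 6 lower ones 6, 5 and 4. Over all genes 55.9% were above 0 in Fear-Recall, 46.4% in Context-Only and 43.3% in Homecage. Vgf was similar in size in each, with a log2 fold change of 0.87 (SE 0.33) in Fear-Only, 1.01 (SE 0.26) in Fear-Recall, 0.81 (SE 0.26) in Context-Only and 1.06 (SE 0.34) in Homecage. On all plates Vgf was higher in reporter-read neurons of every animal compared. With 1 plate per animal, as given above, this did not hold in Fear-Only animal 2. The other conditions also have plates titled pos and neg, and were not read with 1 plate per animal. Bdnf had 1.08 (SE 0.44) in Fear-Only, 0.78 (SE 0.34) in Fear-Recall, -0.12 (SE 0.35) in Context-Only and 0.64 (SE 0.46) in Homecage, and its Fear-Only difference from the others was 0.65 (SE 0.49), which did not pass.

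Dok5 was higher in reporter-read neurons of 3 of 3 Fear-Only animals (0.92), 0 of 5 Fear-Recall animals (-0.23), 1 of 5 Context-Only animals (-0.61) and 2 of 3 Homecage animals (0.21). The difference of Fear-Only from the others was 1.13 (SE 0.41) on the log2 scale and did not pass. Mbp had -1.02 (SE 0.59) in Fear-Only, -0.30 (SE 0.45) in Fear-Recall, 0.59 (SE 0.48) in Context-Only and 1.21 (SE 0.66) in Homecage. Grp was below 0 in each, at -1.20, -0.89, -0.66 and -2.04 in the same order.

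**Figure D5:**
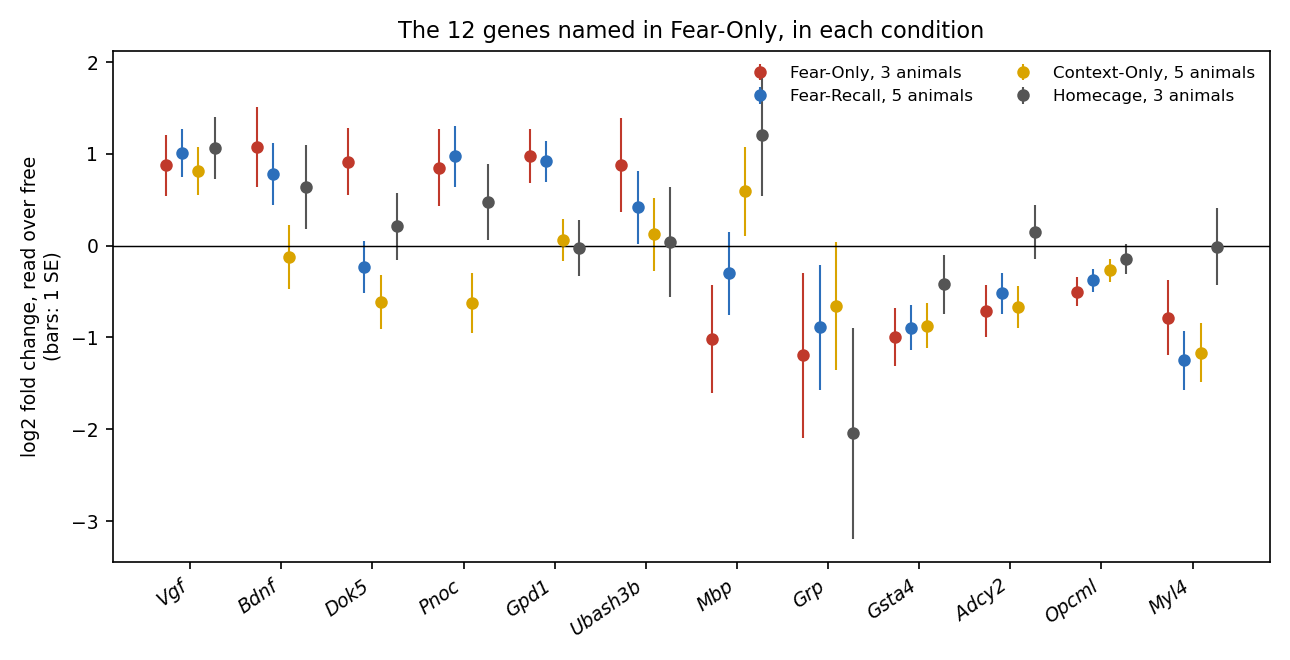
Log2 fold change of reporter-read over reporter-free sums for the 12 genes named in Fear-Only, in each of the 4 conditions, from 1 fit. Vgf was above 0 in each condition, and Dok5 was at 0.92 in Fear-Only, -0.23 in Fear-Recall and -0.61 in Context-Only.

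Genes of smallest p for the Fear-Only difference were named by the same kind of rule, and none passed in edgeR. Zdhhc8, a palmitoyl transferase, had -0.44 (SE 0.25) in Fear-Only and 0.70 (SE 0.19) in Fear-Recall. Ache, which breaks down acetylcholine, had -0.047 (SE 0.21) in Fear-Only and 0.92 (SE 0.16) in Fear-Recall. Scn2a, a sodium channel subunit, had 0.0075 (SE 0.12) and -0.48 (SE 0.093), and Celf2, an RNA-binding splicing regulator, 0.13 (SE 0.11) and -0.36 (SE 0.087). Among the others, Abi2, St13, Ptpn11, Fam178a, Snx2 and Rabep1 were on the higher side of the Fear-Only difference, and Mlip, Etv5 and Ipo4 on the lower side.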

How the data were processed

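Smart-seq2 counts per gene and cell, as deposited by the authors, were used for 3530 cells and 23354 genes beside the reporter, with 0 columns left out. Per the submitters' processing notes, Bowtie 0.12.2 and the builds mm8 and mm10 were used, with no role given to either build, and the tool that counted reads was not given in the sources used here. Reads were not stated to carry molecular identifiers. The exact intervals are on shares of cells, and cover counting error only, not differences between animals or gates. Groups and animals came from the sample labels. The members and gene lists were chosen with earlier results of these data known.

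Counts were summed per animal and side (10 or more cells) and tested with edgeR 4.0.16 (TMM, filterByExpr with a minimum count of 10 and total of 15, quasi-likelihood, animal as a block, Benjamini-Hochberg at 0.05). The block pairs the sides of the same mouse, since both come from 1 brain. DESeq2 1.42.0 and limma-trend 3.58.1 (R 4.3.3) were alternatives, and the steps were checked on simulated counts. Cells were clustered with scanpy 1.11.5 and leidenalg 0.10.2 (2000 variable genes, 30 components, 15 neighbours, resolution 1). Cells were sorted singly, and no doublet caller was run. As no gene passed, named genes were the 6 of smallest p in each direction in all neurons, and the 4 in each class and between conditions, with a mean log2 CPM of 5 or more and no predicted genes. To these came the 2 to 4 list members of smallest p in all neurons (mean log2 CPM of 3 or more) and 12 genes given whatever their p: Fos, Arc, Npas4, Egr1, Nr4a1, Bdnf, Vip, Sst, Pvalb, Slc17a7, Gad1 and Cdkn1a. Some genes that this rule names are not reported here. Shares and genes per cell were tested by exact sign-flip over animals. Alternatives covered normalization, filters, the reporter threshold, thinning to 100000 reads, gates, clustering and leaving out each animal.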

Additional observations from a re-analysis of the deposited data

Results flagged for a closer look

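These results are of genes already named above, picked out because every Fear-Only animal moved one way and every animal of another condition the opposite way. The share of all genes with such a split was not counted. The values are differences between conditions in the log2 fold change of reporter-read over reporter-free sums. Against Fear-Recall they were tested in edgeR over all genes, and none passed. There Dok5 had 1.15 (SE 0.46), Ptpn11 0.64 (SE 0.28), Celf2 0.48 (SE 0.14), Zdhhc8 -1.15 (SE 0.31) and Ipo4 -0.84 (SE 0.23), each with an edgeR adjusted p of 1. Celf2, Zdhhc8 and Ipo4 were named for their p in that contrast. Ptpn11, Fam178a, Zdhhc8 and Etv5 were named for their p in the Fear-Only difference from the mean of the others. Dok5 was named for its p within Fear-Only. The differences given here and below are therefore no separate support for these genes.

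The single differences from Context-Only and from Homecage were not tested. Against Context-Only Zdhhc8 had -0.998, Etv5 -0.68 and Ipo4 -0.68. Against Homecage Ptpn11 had 0.96, Fam178a 0.70 and Etv5 -0.56.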

How the results depend on the processing

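The alternatives "1 plate per animal" and "all conditions in one fit" were chosen after seeing the data. The edgeR counts of 0 held under every edgeR and limma-trend alternative in all neurons, and without the replicate block edgeR called 0 genes in each of the 3 comparisons, so the pairing of sides changed no call. DESeq2 called 60 genes in all, 56 in excitatory and 45 in inhibitory neurons, 16 for the Fear-Only difference from the other conditions and 2 against Fear-Recall. Leaving out 1 animal gave 0 to 2 genes in excitatory neurons (2 without animal 5, 1 without animal 3) and 0 to 1 in inhibitory neurons (1 without animal 2), and Leiden resolution 2 gave 1 in excitatory neurons. The inhibitory share difference was -14.6 points with the pos gate only, -13.8 with 1 plate per animal, and -4.33 to 7.17 when 1 animal was left out.

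Signs of log2 fold changes turned round as follows, and the cause was not tested. With 1 plate per animal the values were Pnoc -0.28, Adcy2 0.077, Myl4 0.20, Atf4 -0.064, Syt7 0.37, Mobp 0.13, Fos -0.68, Arc 0.44, Vip -0.63, Sst -1.03, Pvalb 0.67, Slc17a7 0.74, Gad1 -0.62, Cd164 (excitatory neurons) 0.15 and the activity-regulated secreted and late-response genes in inhibitory neurons (median) 0.25. With the pos gate only they were Pnoc -0.64, Gpd1 -0.072, Ubash3b -0.53, Gsta4 0.19, Adcy2 0.45, Myl4 0.65, Crem -0.037, Atf4 -0.12, Syt7 0.78, St13 -0.0015, Mobp 0.49, Fos -0.90, Arc 0.46, Nr4a1 -0.13, Vip -0.29, Sst -0.095, Slc17a7 0.76 and Gad1 -0.93. With the gate as a further block they were Pnoc -0.42, Atf4 -0.14, Syt7 0.44, Fos -0.48, Arc 0.11, Egr1 -0.016, Nr4a1 -0.061, Sst -2.25, Slc17a7 0.61 and Gad1 -0.34. With the reporter called in thinned cells they were Bdnf -0.017, Pdyn -2.41, Fos -0.039, Arc 0.012, Sst -1.28, Pvalb 0.13 and the activity-regulated secreted and late-response genes in inhibitory neurons (median) 0.25, and with a reporter minimum of 5 Sst -0.0032, the immediate early genes in inhibitory neurons (median) 0.19 and the activity-regulated secreted and late-response genes in inhibitory neurons (median) 0.37. In inhibitory neurons both of these settings left animals 2 and 3 only. With animal 5 left out and no other change, the medians there were 0.20 for the immediate early genes and 0.36 for the late-response genes. Cells thinned before summing gave Fos -0.024, Sst -0.42, Gad1 -0.15 and the activity-regulated secreted and late-response genes in inhibitory neurons (median) 0.0062, standardised class shares Fos -0.035, Sst -0.49 and Gad1 -0.18, and equal weight for each cell Fos -0.0024, Sst -0.45 and Gad1 -0.17. limma-trend gave Sst -0.034, and the fit without the replicate block Sst -0.59. When 1 animal was left out, the values ranged as Fos -0.26 to 0.62, Arc -0.27 to 0.21, Vip -0.16 to 1.71, Sst -1.02 to 1.34, Pvalb -1.57 to 0.31, Slc17a7 -0.61 to 0.15, Gad1 -0.0057 to 0.086, the immediate early genes in inhibitory neurons (median) -0.42 to 0.20 and the activity-regulated secreted and late-response genes in inhibitory neurons (median) -0.29 to 0.36. The alternative with ungated animals only was not run, since 1 such animal had both sides. With 3 animals, an exact test cannot pass 0.05, and differences of sides in animals 2 and 3 cannot be told apart from differences of plates.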
